A study of Mus musculus with 4 samples.

Results

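Axon guidance ligands and receptors were taken from a table of m6A regions by gene symbol: semaphorins, ephrins, netrins and Slits as ligands, and plexins, neuropilins, Eph receptors, Unc5 genes, Dcc and Robo receptors. The leucine-rich repeat adhesion genes of the Slitrk, Lrrtm and Flrt families were added. The rule found 55 regions under 28 genes, out of 6697 distinct regions and 3884 gene identifiers in the table. RefSeq (GRCm38.p6) has 84 protein-coding genes with such symbols, of which 28 (33.3%) were listed, against 3451 of 21900 protein-coding genes (15.8%). No Unc5, Slitrk or Lrrtm gene had a region, so the listed members are the guidance families proper and the adhesion genes Flrt2 and Flrt3.

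Guidance cues steer growing axons and migrating cells by acting on receptors that rearrange the actin cytoskeleton. Semaphorins signal through plexins, often with neuropilin as a co-receptor, ephrins through the Eph receptor tyrosine kinases, netrins through Dcc and Unc5 proteins, and Slits through Robo receptors. The same families also shape blood vessels, epithelia and early embryonic tissues, and ephrins can signal back into the cell that carries them. N6-methyladenosine (m6A) is a methyl mark on adenosines of mRNA that affects how long a transcript lasts and how it is spliced and translated.

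The compared groups were mouse embryonic stem cells labelled Gsk-3 DKO, a double knockout of the Gsk-3 kinases, and wild-type cells of the same E14K line. Both were feeder-free and had been without LIF, the cytokine that maintains self-renewal, for 14 days. Each genotype had 1 m6A library, made from poly(A)-selected RNA pulled down with an m6A antibody, and 1 input library. The table names the genotype of each count and not the library type. Its counts were read as those of the m6A libraries, and input levels were not analysed here. The labels do not say how many clones stand behind a genotype. With 1 library per group there is no replicate check and no test. Every comparison is between these 2 libraries, and intervals of counts and folds cover counting error only. Intervals of shares treat the regions as independent, which regions of the same gene are not. In bulk RNA, fewer cells of a type, less RNA per cell and less methylation per transcript cannot be told apart.

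The table holds 1 direction only: in 0 of its regions did the double-knockout count reach the wild-type count. Counts summed to 27072 in double-knockout cells and 573971 in wild-type cells over all listed regions. After the constant of 0.825 that the authors applied between the libraries, double-knockout counts were 17.5-fold lower (95% counting interval 17.3 to 17.7). These sums are not sequencing depth. The deletion itself could not be checked, because Gsk3a was not listed and Gsk3b only through a region outside the gene. A gene without a region is not shown to lack m6A or expression.

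Some listed regions reached past the annotated start of the gene into the promoter. Where a RefSeq start was at hand, 4 of 42 axon guidance regions (9.52%) overlapped the 250 bases before it, against 132 of 4530 regions counted once under each gene (2.91%). These 4 regions are few, and the difference was not tested. They belonged to Efna5, Robo1, Sema3c and Ephb3, and the Ephb3 region entered the promoter by only 10 bases. The stretches of the other genes that lie before the start are printed below, from RefSeq (GRCm38.p6) on the strand of the gene. Their coordinates are chr17:62881323-62881497 (minus strand) for Efna5, chr16:72663082-72663148 (plus strand) for Robo1 and chr5:17574704-17574815 (plus strand) for Sema3c. Capitals mark GGAC, GGACT or AAACT on either strand, letters that occur in the m6A consensus. GGACT contains GGAC, so a GGACT match counts under both.
Efna5: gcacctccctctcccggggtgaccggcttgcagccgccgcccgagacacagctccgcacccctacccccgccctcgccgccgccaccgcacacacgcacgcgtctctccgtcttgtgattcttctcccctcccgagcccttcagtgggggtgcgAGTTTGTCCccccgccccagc
Robo1: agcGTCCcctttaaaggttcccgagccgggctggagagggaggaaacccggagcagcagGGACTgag
Sema3c: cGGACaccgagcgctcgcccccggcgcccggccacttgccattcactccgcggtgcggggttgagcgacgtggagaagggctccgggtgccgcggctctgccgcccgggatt

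The Efna5 stretch of 175 bases held 1 GGAC and 1 AAACT match side by side. Both lie on the strand opposite the gene and are printed as the reverse complements GTCC and AGTTT. Counted on either strand, 71.1% and 28.4% of all 32851 RefSeq promoters held them in the same window. The Robo1 stretch of 67 bases held 2 GGAC matches. Of these, 1 was a GGACT on the strand of the gene, and the other is printed as the reverse complement GTCC. In that window 38.1% of promoters held GGAC and 11.5% GGACT. The Sema3c stretch of 112 bases held 1 GGAC match, as 55.3% of promoters did. Such matches are common and describe the letters only. In the regions that contain these stretches, double-knockout cells had 0 reads for all 3 genes, and wild-type cells had 20 for Efna5, 128 for Robo1 and 28 for Sema3c. The Ephb3 region had 20 double-knockout reads, so 3 of the 4 regions (75%) were at 0, beside 62 of 132 (47%) in the table. The 5'UTR region of Sema6a, centred at -33 bases (before its deposited start), was not counted among the 4 and had 1 double-knockout read.

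Double-knockout counts over the 55 regions ran from 0 to 20 with a median of 0. Wild-type counts ran from 16 to 289 with a median of 44, next to a median of 43 over all regions. Double-knockout counts lay below wild-type counts in every one of the 55 regions, as the table's own 1-sided content requires, and only Ephb3 and Epha2 had a region with more than 10 double-knockout reads. No double-knockout read was found in 35 regions (63.6%, exact Clopper-Pearson interval 49.6% to 76.2%), beside 50.5% of all regions and 45% of regions under a gene. Another 8 regions had 1 to 3 double-knockout reads (14.5%, beside 24.9%), and 12 had 4 or more (21.8%, beside 24.6%). A fold of at least 10 was reached in 25 regions (45.5%), beside 52.5% of all regions and 54% of regions under a gene. Here and below, a double-knockout count of 0 was set to a floor of 3 reads for folds. Such folds are values at the floor, and their exact lower limits are smaller. Regions at 0 with few wild-type reads could not reach 10-fold: at the floor, 32 wild-type reads gave 8.8-fold and 38 gave 10.4-fold. The share at 10-fold thus depends on the wild-type count as well as on the double-knockout count. Only 21 regions reached 10-fold with the upper Poisson limit in place of the floor. With 1 region per gene, the deepest, 16 of the 28 genes had no double-knockout read, beside 46.2% of all genes, and 15 were at least 10-fold lower, beside 55.6%. The 55 regions summed to 110 reads in double-knockout cells and 3165 in wild-type cells, a 23.7-fold difference (19.6 to 29). Leaving out Ephb3 made it 34.5-fold (27.1 to 44.6).

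**Figure D1:**
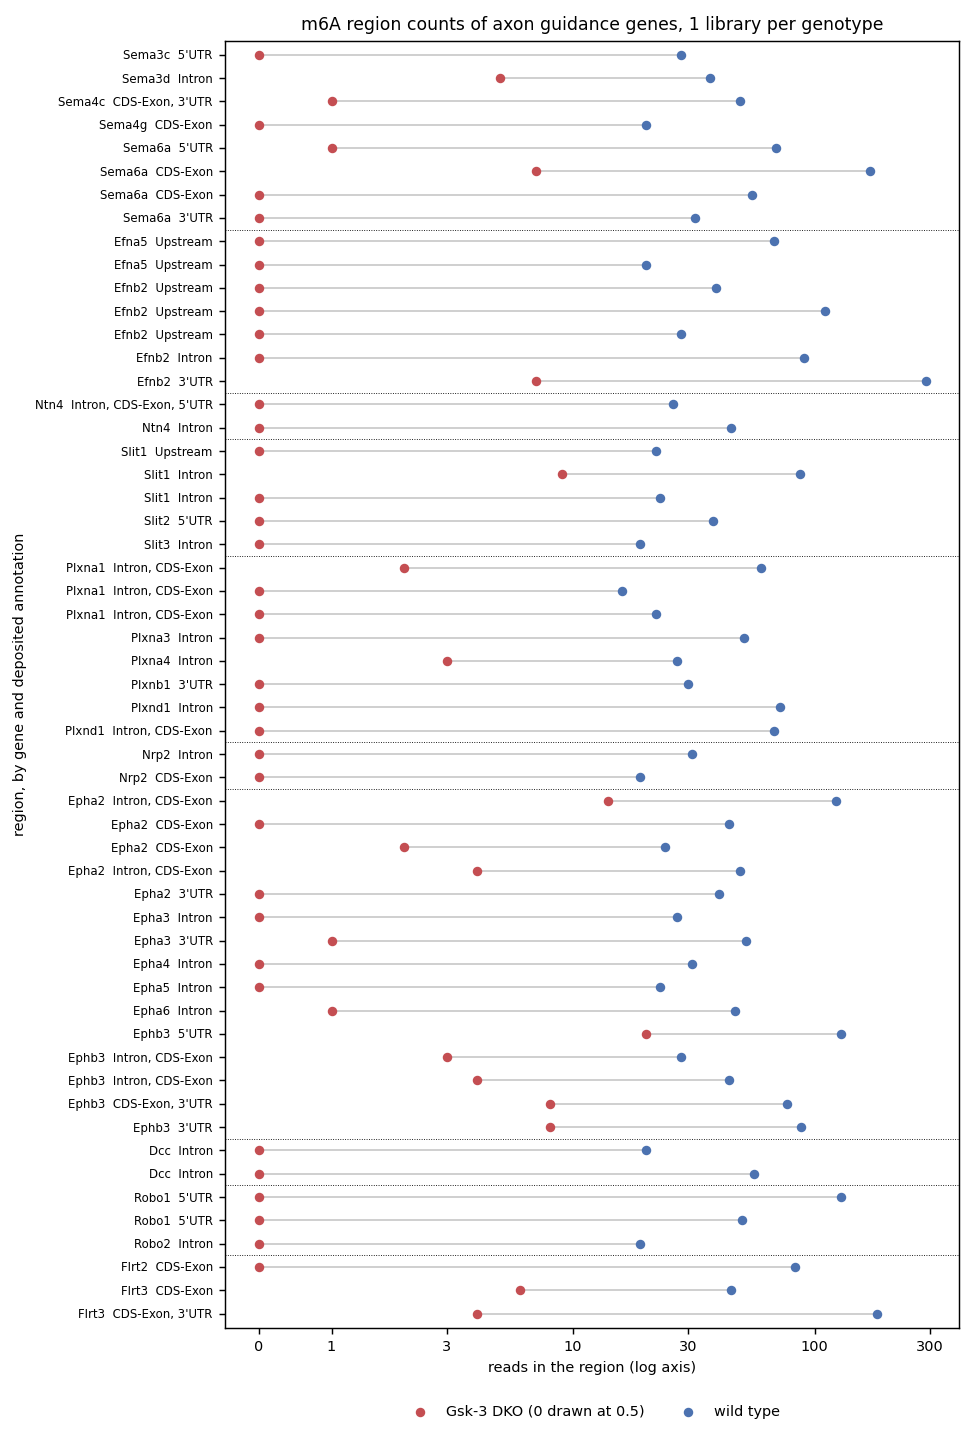
Reads in each of the 55 axon guidance regions in Gsk-3 DKO (red) and wild-type (blue) cells, on a log axis with counts of 0 drawn at 0.5; rows are regions, grouped by family between dotted lines. Wild-type points lie between 16 and 289, double-knockout points between 0 and 20, of which 35 are at 0.

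Among the ligand families with double-knockout reads, the ephrins had the largest fold, with 7 reads in double-knockout cells and 644 in wild-type cells over 7 regions (75.9-fold, 36.6 to 189). Only Efna5 and Efnb2 of 8 ephrin genes were listed. Efnb2 encodes ephrin-B2, a transmembrane ligand that marks arterial endothelium and takes part in boundary formation. Its 3'UTR region on chromosome 8 (8620220 to 8620564) had 7 reads in double-knockout cells and 289 in wild-type cells (34.1-fold, 16.3 to 85.5). At 0.838 wild-type reads per base it was the densest axon guidance region. An intronic region of Efnb2 (8649966 to 8650249) had 0 reads in double-knockout cells and 90 in wild-type cells. This region was 24.7-fold lower at the floor (exact lower limit 19.7). Of the Efnb2 upstream regions, the one centred at -326 bases (negative distances lie before the deposited start) had 0 double-knockout and 110 wild-type reads. It was 30.2-fold lower at the floor (exact lower limit 24.2). The upstream regions centred at -109 and -3085 bases had 0 reads in double-knockout cells and 28 and 39 in wild-type cells. Every Efnb2 region outside the 3'UTR was thus at 0 in the double knockout.

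The upstream label of Efnb2 depends on the start that is used. The RefSeq start lies farther out, and measured from it the nearer 2 regions begin 264 and 45 bases inside the transcript. All 3 regions were also listed under 4921522P10Rik, a neighbouring transcript, and which transcript gave the reads was not tested, nor is it stated whether counting used the strand. The upstream regions of Efna5, a membrane-anchored ligand that repels retinal axons, lie before the start by both annotations. The region of Efna5 centred at -93 bases had 0 reads in double-knockout cells and 20 in wild-type cells. The one at -718 bases had 0 in double-knockout cells and 68 in wild-type cells, 18.7-fold lower at the floor (exact lower limit 14.8).

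The semaphorins had 14 reads in double-knockout cells and 459 in wild-type cells over 8 regions (27-fold, 16 to 49.9), with 5 of 20 genes listed. Sema6a, a transmembrane semaphorin that binds plexin-A receptors, had 4 of these regions. A coding exon region (chromosome 18, 47248754 to 47249234) had 7 reads in double-knockout cells and 169 in wild-type cells (19.9-fold, 9.46 to 50.3). The neighbouring coding region (47248488 to 47248651) had 0 reads in double-knockout cells and 55 in wild-type cells. The 5'UTR region of Sema6a had 1 read in double-knockout cells and 69 in wild-type cells (56.9-fold, 9.88 to 2280), and the 3'UTR region 0 in double-knockout cells and 32 in wild-type cells. Listed regions thus lay at both ends and in the coding part of this transcript. Each was lower in double-knockout cells, as every region of the table was.

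The other semaphorins had 1 region each. Sema4c, a transmembrane semaphorin that binds plexin-B2, had 1 read in double-knockout cells and 49 in wild-type cells across the end of its coding sequence (40.4-fold, 6.92 to 1630). That region was also listed upstream of Ankrd39. The secreted semaphorin gene Sema3d had 5 reads in double-knockout cells and 37 in wild-type cells in an intron, with the smallest fold of the ligand genes that had double-knockout reads (6.1-fold, 2.39 to 19.9). Sema3c, a secreted semaphorin needed for cardiac outflow development, had 0 and 28 reads in double-knockout and wild-type cells, and Sema4g 0 and 20.

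All 3 Slit genes, which encode secreted repellents, were listed, with 9 reads in double-knockout cells and 189 in wild-type cells over 5 regions (17.3-fold, 8.93 to 38.5). Slit1 had 9 reads in double-knockout cells and 87 in wild-type cells in an intron on chromosome 19 (41704060 to 41704250), 7.97-fold lower (4.01 to 18). Its second intronic region had 0 reads in double-knockout cells and 23 in wild-type cells, and its upstream region, also listed under Gm19424, 0 in double-knockout cells and 22 in wild-type cells. Slit2 had 0 reads in double-knockout cells and 38 in wild-type cells in its 5'UTR. This was 10.4-fold lower at the floor (exact lower limit 8.09). Slit3 had 0 reads in double-knockout cells and 19 in wild-type cells in an intron. The netrin family of 4 genes was listed through Ntn4, which encodes a netrin found in basement membranes. Ntn4 had 0 reads in double-knockout cells in both regions, with 26 wild-type reads at the first exon and 45 in an intron.

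Among the receptors, the Eph kinases had the most double-knockout reads, 65 in double-knockout cells and 824 in wild-type cells over 15 regions (10.5-fold, 8.12 to 13.7). Most came from Ephb3, a receptor of B-type ephrins known from intestinal crypts and commissural axons. Its 5'UTR region on chromosome 16 (21204785 to 21204949) had 20 reads in double-knockout cells and 128 in wild-type cells, 5.28-fold lower (3.28 to 8.93), the smallest fold of the 20 regions with double-knockout reads. The regions crossing coding exons and introns of Ephb3 had 3 and 4 reads in double-knockout cells and 28 and 44 in wild-type cells. At its 3' end, 2 regions had 8 reads each in double-knockout cells, against 77 and 88 in wild-type cells. All 5 regions of Ephb3 kept double-knockout reads, with folds from 5.28 to 9.07, and they summed to 43 reads in double-knockout cells and 365 in wild-type cells (7-fold, 5.09 to 9.84).

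Epha2, a receptor of A-type ephrins found in epithelia and in early embryos, also had 5 regions. The region closest to the start (chromosome 4, 141301353 to 141301523) had 14 reads in double-knockout cells and 122 in wild-type cells (7.19-fold, 4.12 to 13.5). The coding regions of Epha2 farther along had 0, 2 and 4 reads in double-knockout cells, against 44, 24 and 49 in wild-type cells, and the 3'UTR region had 0 in double-knockout cells and 40 in wild-type cells. Without Ephb3 and Epha2, the 2 genes with most double-knockout reads and so chosen with their values in view, the other Eph receptors had 2 reads in double-knockout cells and 180 in wild-type cells (74.2-fold, 20.3 to 618). Without Ephb3 alone the family fold was 17.2 (11.2 to 27.7), and without Epha2 alone 9.99 (7.36 to 13.9). Leaving out genes with many double-knockout reads raises a fold by construction, where their own fold is below that of the family.

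The remaining Eph receptors are A-type kinases. Epha3 had 1 read in double-knockout cells and 52 in wild-type cells in its 3'UTR (42.9-fold, 7.37 to 1730), and 0 in double-knockout cells and 27 in wild-type cells in an intron. Epha6 had 1 read in double-knockout cells and 47 in wild-type cells in an intron. Epha4, which keeps corticospinal axons from recrossing the midline, had 0 and 31 reads in double-knockout and wild-type cells, and Epha5 0 and 23, both in introns.

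**Figure D2:**
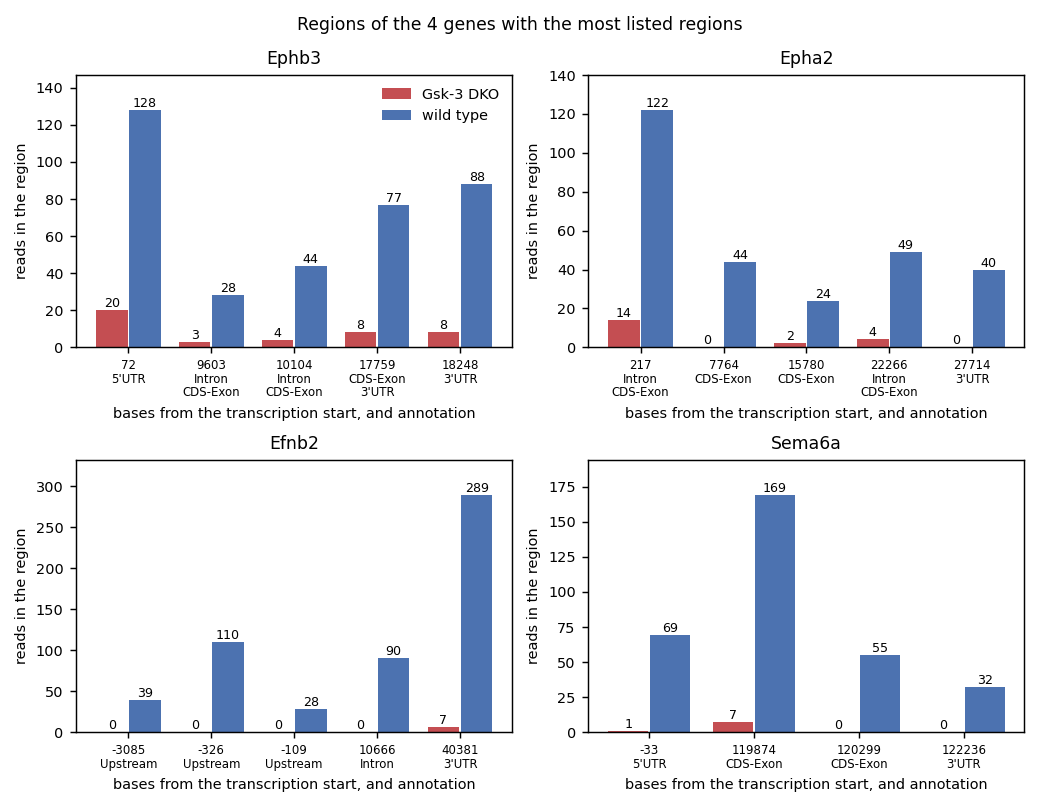
Reads per region in Gsk-3 DKO (red, left bars) and wild-type (blue, right bars) cells for the 4 axon guidance genes with the most regions, placed in order of the deposited distance in bases from the transcription start, with linear axes from 0. Ephb3 had double-knockout reads in all 5 regions, Epha2 in 3 of 5, Sema6a in 2 of 4 and Efnb2 only in its 3'UTR.

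The plexins, the semaphorin receptors, had 5 reads in double-knockout cells and 346 in wild-type cells over 8 regions of 5 genes (57.1-fold, 24.2 to 177). Plxnd1, a plexin of blood vessels, had 0 reads in double-knockout cells in both of its regions on chromosome 6, against 72 and 68 in wild-type cells. Together these were 38.5-fold lower at the floor (exact lower limit 30.9). Plxna1 had 2 reads in double-knockout cells and 60 in wild-type cells (24.7-fold, 6.56 to 209), and 0 in double-knockout cells and 16 and 22 in wild-type cells in its other regions. Plxna3 had 0 reads in double-knockout cells and 51 in wild-type cells in an intron, and Plxnb1 0 in double-knockout cells and 30 in wild-type cells in the 3'UTR. Plxna4 had 3 reads in double-knockout cells and 27 in wild-type cells in an intron (7.42-fold, with a wide interval of 2.28 to 38.2). The neuropilin gene Nrp2, a co-receptor of class 3 semaphorins, had 0 reads in double-knockout cells in both regions, against 31 and 19 in wild-type cells, and Nrp1 was not listed.

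No double-knockout read was found for the Robo receptors or Dcc. Robo1, a Slit receptor of commissural axons, had 0 reads in double-knockout cells and 128 in wild-type cells at its start on chromosome 16. In that region (72663082 to 72663290) Robo1 was 35.2-fold lower at the floor (exact lower limit 28.2). Its second 5'UTR region (72663616 to 72663867) had 0 reads in double-knockout cells and 50 in wild-type cells. Over both, Robo1 was 48.9-fold lower at the floor (exact lower limit 39.4). Robo2 had 0 reads in double-knockout cells and 19 in wild-type cells in an intron. Dcc is the netrin receptor that draws axons to the midline. It had 0 reads in double-knockout cells in its 2 intronic regions, against 20 and 56 in wild-type cells. Dcc was 20.9-fold lower over both at the floor (exact lower limit 16.6).

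The Flrt genes encode membrane proteins that bind Unc5 receptors and latrophilins. Flrt3, which is known from early embryonic tissue adhesion, had 4 reads in double-knockout cells and 181 in wild-type cells across the end of its coding sequence on chromosome 2 (140659639 to 140659906), 37.3-fold lower (14.3 to 138). A second coding region of Flrt3 (140660560 to 140660777) had 6 reads in double-knockout cells and 45 in wild-type cells (6.19-fold, 2.63 to 17.7). Flrt3 lies inside an intron of Macrod2, under which both regions were listed too. Flrt2 had 0 reads in double-knockout cells and 83 in wild-type cells in its coding exon on chromosome 12. This was 22.8-fold lower at the floor (exact lower limit 18.1).

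By role, ligand regions summed to 30 reads in double-knockout cells and 1363 in wild-type cells (37.5-fold, 26.1 to 55.8), and receptor regions to 70 in double-knockout cells and 1493 in wild-type cells (17.6-fold, 13.8 to 22.7). Without Ephb3, the gene with most double-knockout reads, receptors were 34.5-fold lower (23.6 to 52.5), and without Efnb2, the gene with most wild-type reads, ligands were 28.9-fold lower (19.2 to 45.9). Either omission made the intervals of the roles overlap. Median log2 values of double knockout over wild type, computed with 0.5 added to both counts, were -5.36 for 22 ligand regions, -5.04 for 30 receptor regions and -5.06 for 3 Flrt regions, beside -4.93 for all regions. With 1 region per gene, the one with the highest mean count, the order of ligands and receptors turned, at -5.01 and -5.28. The median of all 55 regions was -5.21.

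Fold intervals were separate in 0 of 50 pairs of regions of the same gene. Separate intervals are a strict criterion, so differences along a transcript are not excluded. The Flrt3 regions, for example, had folds of 6.19 (2.63 to 17.7) and 37.3 (14.3 to 138). Of 378 pairs of genes, 24 had separate intervals of the summed fold, and 13 of those pairs held Ephb3. The interval of Ephb3 ended at 9.84. Among genes with double-knockout reads, those of Flrt3 (from 9.95), Plxna1, Epha3, Sema6a and Efnb2 (from 31.6) began above it. So did those of Nrp2, Plxna3, Ntn4, Dcc, Flrt2, Efna5, Plxnd1 and Robo1, genes at 0, for which the exact limit was used in place of the floor. The other 11 pairs set Efnb2, Plxnd1, Robo1 or Efna5 against Epha2, Slit1, Sema3d or Plxna4. Intervals were not adjusted for the number of pairs. The share of separate pairs among all genes of the table was not computed, so these counts are a description and cannot be called unusual.

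**Figure D3:**
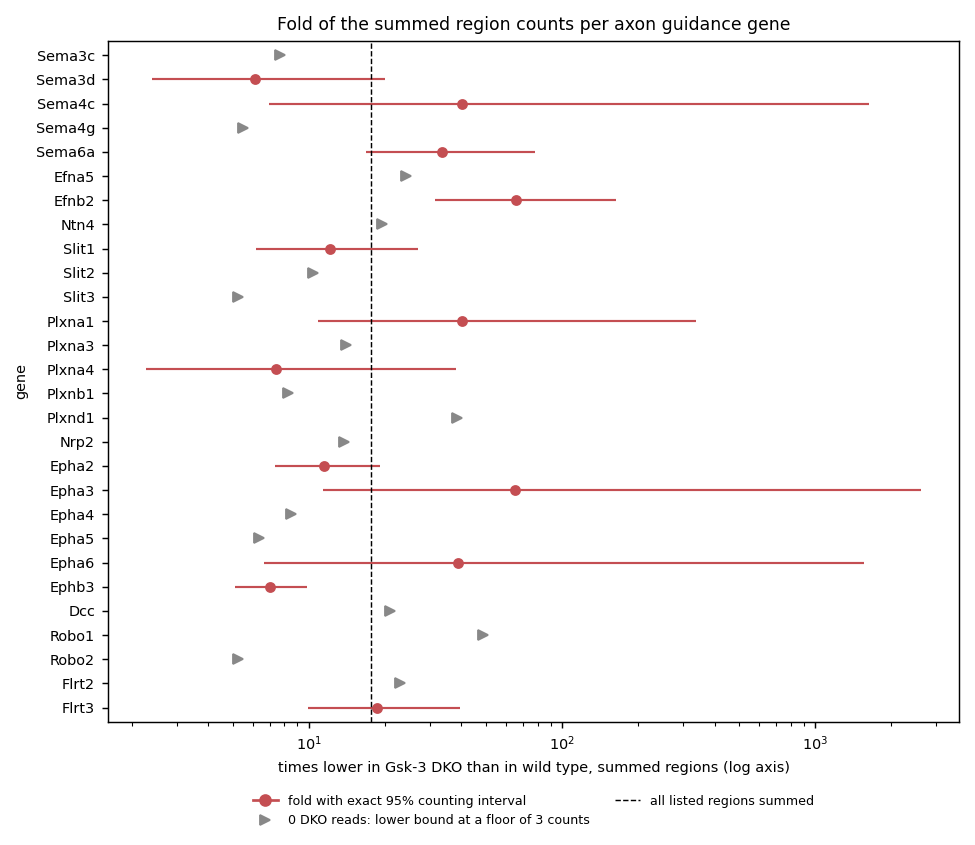
Times lower in Gsk-3 DKO than in wild-type cells for the summed regions of each of the 28 genes, on a log axis. Red points have exact 95% counting intervals. Grey arrowheads are genes with 0 double-knockout reads, at the floor of 3 reads, and their exact lower limits are smaller. The dashed line is the 17.5-fold difference of all listed regions; Ephb3, at 7-fold, lies below it with its whole interval, and Efnb2, at 65.5-fold, above it.

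Set against the 17.5-fold difference of the whole table, 2 axon guidance regions had intervals wholly below it, beside 8.3% of all regions. These were the first regions of Ephb3 and Epha2. Wholly above it lay 4 regions, beside 7.65% of all regions: the Robo1 start, Flrt2 and the regions of Efnb2 in its intron and at -326 bases. The share above, 7.27%, was near the table's own. The share below, 3.64%, was smaller than the table's, and its interval of 0.443% to 12.5% contained 8.3%.

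The axon guidance genes in the table were long. Their median span in RefSeq was 136936 bases, against 25848 for the 56 genes of the same families that were not listed and 33549 for all listed protein-coding genes. By the deposited annotation, 17 of the 55 regions (30.9%, 19.1% to 44.8%) lay in introns only, beside 20.6% of all regions counted once under each gene. Exons or UTRs were overlapped by 32 regions (58.2%, beside 60.8%), and 6 (10.9%, beside 12.7%) were upstream only. Coding sequence was overlapped by 20 regions (36.4%, 23.8% to 50.4%), beside 47%, and the 3'UTR by 9 (16.4%, beside 15.2%). The 5'UTR was overlapped by 7 regions (12.7%, 5.27% to 24.5%), beside 6.66%. Within 1000 bases of the start lay 12 regions (21.8%, 11.8% to 35%), beside 15.2%.

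Regions without double-knockout reads were found in each class. They made up 16 of 32 exonic regions (50%, 31.9% to 68.1%, beside 36.1% in the table), 13 of 17 intronic regions (76.5%, 50.1% to 93.2%, beside 67.8%) and all 6 upstream regions (lower limit 54.1%, beside 45.7%). Of the upstream regions, 3 belong to Efnb2 and 2 to Efna5, so these are not independent. Of the 12 regions near a start, 9 had none (75%, 42.8% to 94.5%, beside 40.4%), and those with reads were Ephb3, Epha2 and Sema6a.

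The share without double-knockout reads followed the wild-type count. It was 15 of 18 regions (83.3%) at 15 to 29 wild-type reads, 9 of 15 (60%) at 30 to 49, 7 of 11 (63.6%) at 50 to 79 and 4 of 11 (36.4%) at 80 or more. The table as a whole gave 75.7%, 54.2%, 43.2% and 21.3% in the same steps, and each lay within the interval of the axon guidance regions. The summed folds of the axon guidance regions in these steps were 42.4 (21.3 to 98.8), 23.6 (15.3 to 38.4), 46.6 (26.5 to 90.6) and 17.6 (13.8 to 22.8), beside 40, 25.6, 21.1 and 15.2 in the table. At 50 to 79 wild-type reads the table's value lay below the interval, and in the other steps inside it. Over all regions at or above the median wild-type count, the axon guidance fold was 21.1 (17.2 to 26.1), beside 16.1. The 4 regions at 0 with 80 or more wild-type reads were those of Robo1, Flrt2 and Efnb2 named above.

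**Figure D4:**
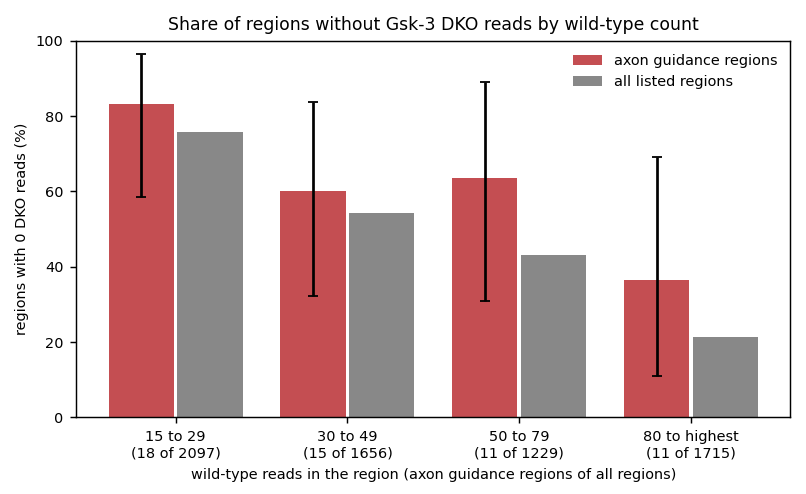
Percentage of regions with 0 Gsk-3 DKO reads among axon guidance regions (red, left bars, with exact Clopper-Pearson 95% intervals) and among all listed regions (grey, right bars), by wild-type count. The red bars are 83.3%, 60%, 63.6% and 36.4% high, and all 4 intervals contain the value of the whole table. These intervals treat regions as independent.

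Genes that act downstream of guidance receptors were read from a list of 69 genes, of which 22 were in the table. By the deepest region of each gene, 11 of the 22 had no double-knockout read, beside 46.2% of all genes, and 13 were at least 10-fold lower, beside 55.6%. Their median log2 value was -5.01, beside -4.85. In semaphorin signalling 3 of 12 genes were listed, 2 of them at 0 in double-knockout cells and 2 at least 10-fold lower. Mical3, of the actin-oxidising enzymes that plexins recruit, had 0 reads in double-knockout cells and 202 in wild-type cells in an intron, and 21 in double-knockout cells and 598 in wild-type cells over its 5 regions. Farp1, a guanine nucleotide exchange factor, had 2 reads in double-knockout cells and 29 in wild-type cells. None of the 5 collapsin response mediator genes was listed.

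In ephrin signalling 4 of 17 genes were listed, each with 0 double-knockout reads in its deepest region, and 2 of the 4 were at least 10-fold lower. Fyn and Git1, at 0 against 36 and 32 wild-type reads, could not reach 10-fold at the floor. The Rac activator gene Tiam1 had 0 reads in double-knockout cells and 807 in wild-type cells in an intron, and 2 in double-knockout cells and 827 in wild-type cells over both of its regions. Kalrn, which acts in dendritic spines, had 0 reads in double-knockout cells and 161 in wild-type cells, also in an intron. In netrin and Slit signalling 11 of 21 genes were listed, 3 of them at 0 in double-knockout cells and 5 at least 10-fold lower, with a median log2 value of -4.44. The kinase gene Abl2 had 22 reads in double-knockout cells and 204 in wild-type cells (7.65-fold, 4.92 to 12.5), and the adhesion gene Dscam, whose product has been described as a netrin receptor, 4 in double-knockout cells and 167 in wild-type cells (34.4-fold, 13.2 to 128). Of 14 actin effectors 4 were listed, 2 of them at 0 in double-knockout cells and all 4 at least 10-fold lower, beside 55.6% of all genes. Pak2, a kinase activated by Rac and Cdc42, had 0 reads in double-knockout cells and 123 in wild-type cells in an intron, and the cofilin phosphatase gene Ssh1 3 in double-knockout cells and 92 in wild-type cells.

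Markers of cell types that carry guidance genes were also in the table. The deepest regions of all genes in the table summed to 18128 reads in double-knockout cells and 364181 in wild-type cells. Of 10 neural markers 3 were listed, Sox11, Nes and Tubb3. Their deepest regions had 14 reads in double-knockout cells and 2455 in wild-type cells. Most of these wild-type reads came from Sox11 (1308) and Nes (1110). Tubb3 had 2 reads in double-knockout cells and 37 in wild-type cells, and the neuronal genes Map2, Dcx, Elavl3 and Stmn2 had no region. Endothelial markers were listed for 3 of 5 genes (5 reads in double-knockout cells and 475 in wild-type cells), with Pecam1 and Kdr absent, and mesenchymal markers for 3 of 6 (0 in double-knockout cells and 212 in wild-type cells). Stem cell markers were listed for 4 of 9 genes, with 14 reads in double-knockout cells and 266 in wild-type cells, and Nanog and Sox2 had no region. Their part in the axon guidance values was not tested.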

How the data were processed

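The authors deposited 1 table of regions with a count per region for each genotype, a ratio and a read density. The submitters' processing notes name Bowtie2, DESeq and mm9 without a role. The peak caller, the filters and any normalization of the counts were not given in the sources used here. The file headers name the genotype only, and the deposited counts were matched to the m6A libraries by title; a count from input cannot be told apart. The deposited ratio is wild type over double knockout times a constant of 0.825, and is blank where the double-knockout count is 0. The deposited signal, read density, is the wild-type count per base. Library totals are not in the table. Coordinates are printed as deposited. They are described as GRCm38, because the deposited start distances matched a RefSeq GRCm38.p6 start within 1 base for 3480 of 4530 regions and 34 of 42 axon guidance regions. RefSeq starts were found for 23 of the 28 genes.

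Each region was used once per gene (55 regions; 6204 region and gene pairs in the table) and once per position for the whole table. A fold is the wild-type count divided by the double-knockout count, times the constant; a double-knockout count of 0 was set to a floor of 3. Log2 values used a pseudocount of 0.5. Intervals are 95% exact Clopper-Pearson; for a count of 0 they reach past the floor (Poisson limit 3.69). Reads without molecular identifiers are not independent molecules. Members and lists were chosen with earlier results of these data known. Genes with a region at or above the median wild-type count (43) or with several regions are given with their counts, the rest by family, and the 2 deepest genes of each downstream group. Python 3.11.15, pandas 2.3.3, scipy 1.17.1 and matplotlib 3.10.9 were used.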

Additional observations from a re-analysis of the deposited data

How the results depend on the processing

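Of 47 alternatives of the summary values, 30 stayed within the 95% order-statistic interval of the median or within 1.5 times the count. The median log2 value of the axon guidance regions (-5.21) was -1.45 with a median-ratio factor, -6.20 with a pseudocount of 0.25 and -3.68 with one of 2. For ligands (-5.36) these settings gave -1.60, -6.35 and -3.81, and for receptors (-5.04) -1.28, -6.03 and -3.47. For the Flrt regions (-5.06) the factor gave -1.29. The factor was taken from the listed regions with reads in both libraries, all of them lower in the double knockout. It thus divides out the table's own difference and does not measure sequencing depth. The factor adds 3.77 to every value by construction, and the pseudocount enters the value directly. For ligands, taking 1 region per gene gave a median of -5.01 from fewer regions. The number of regions with 0 double-knockout reads (35) was 16 with 1 region per gene, 12 at or above the median mean count and 16 in exonic regions. The number at least 10-fold lower (25) was 15 with 1 region per gene, 16 in exonic regions and 44 with a floor of 1 count. In these subsets fewer regions were counted. Of 84 alternatives of single genes 81 stayed within counting error. The exceptions were means over all regions for Epha2 (-4.25), Flrt3 (-3.79) and Slit1 (-4.47). For the 14 genes with 1 region that mean equals the main value by construction. Where the deepest region had 0 double-knockout reads, the interval was open below, so a smaller pseudocount could not leave it. Leaving out Ephb3, Epha2 or Efnb2 from family sums was chosen after seeing the data. Without Efnb2, only Efna5 was left, and the ephrin fold (75.9) became 24.2 at the floor (exact lower limit 19.3). No paired analysis was possible because each group had 1 library. Counts of 0 gave only a lower bound for 35 axon guidance regions, 15 of them with fewer than 30 wild-type reads.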

Other observations

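Of 13 genes for binding partners of Flrt and Lrrtm proteins, 9 were listed, beside 15.8% of all protein-coding genes. Unc5 genes, whose products Flrt proteins also bind, were not on this list and had no region. The latrophilin gene Lphn2 (Adgrl2), an adhesion receptor that binds Flrt proteins, had 37 reads in double-knockout cells and 367 in wild-type cells in a coding exon (8.18-fold, 5.83 to 11.8). Lphn1 (Adgrl1) had 3 reads in double-knockout cells and 112 in wild-type cells (30.8-fold, 10.3 to 152). Gpc4, a glypican that binds Lrrtm4, had 8 reads in double-knockout cells and 161 in wild-type cells in its 5'UTR (16.6-fold, 8.22 to 39.1). The teneurin genes Tenm3, Tenm4 and Tenm1 had 0 reads in double-knockout cells in their deepest regions, against 76, 61 and 23 in wild-type cells, and the neurexin genes Nrxn3 and Nrxn2 0 in double-knockout cells, against 75 and 27 in wild-type cells. Ptprs had 0 reads in double-knockout cells and 17 in wild-type cells. Over the group, 6 of 9 genes had no double-knockout read in the deepest region, beside 46.2% of all genes, and 5 of 9 were at least 10-fold lower, beside 55.6%. Their median log2 value was -5.28.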
